A study of Mus musculus with 6 samples.

Results

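The genes followed here were the 4 keratins of simple epithelium (*Krt8*, *Krt18*, *Krt7* and *Krt19*) and 6 transcription factors of the trophoblast (*Tfap2c*, *Ascl2*, *Gata2*, *Gata3*, *Hand1* and *Elf5*). They were taken by symbol from a gene table of 37620 genes, in which all 10 were found. PolyA RNA was measured in 6 libraries of E14 mouse embryonic stem cells (ESCs), a pluripotent line of strain 129/Ola derived from the inner cell mass of the blastocyst. The wild-type group had 3 libraries and the S138A group had 3, and in the S138A cells a serine of the ubiquitin-conjugating enzyme UBE2D3 is replaced with alanine. For ESC culture the methods of the study name serum, LIF and gelatin-coated plates. The study carried a single homozygous CRISPR/Cas9 clone through its work on mutant ESCs, and the labels do not say which clone gave these libraries, so the mutation and a difference between clones cannot be told apart. Nor do the labels say whether the libraries of a group came from separate cultures, so p-values measure the spread between these libraries, which may be technical. The titles number the S138A samples, but 3 column names of the table match no title, in genotype or in number. These columns were assigned to S138A by exclusion, as the remaining columns are named as wild-type and the titles hold no further genotype. Every comparison here rests on that assignment. The letters A, B and C stand for these S138A libraries.

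The trophoblast is the outer layer of the blastocyst and gives rise to the fetal part of the placenta. It is the first epithelium of the embryo, and its cells fill with intermediate filaments built from a type II keratin (KRT8, KRT7) paired with a type I keratin (KRT18, KRT19). Its transcription factors act in steps. TFAP2C and GATA3 help to set up the lineage, ELF5 maintains trophoblast stem cells and is kept silent by DNA methylation in ESCs, and ASCL2, HAND1 and GATA2 act in the later placental cell types. Several of these genes also have other uses, with *Tfap2c* expressed in naive pluripotent cells and germ cells, *Hand1* in mesoderm, *Gata2* and *Gata3* in blood and surface ectoderm, and *Krt8* and *Krt18* in many simple epithelia.

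Library totals lay between 33227593 and 37169770 counts, and 9 of the 10 genes were among the 16023 with enough counts to be tested. On the first principal component of log2 CPM (counts per 1000000 counts), wild-type 3 and S138A C fell far from the remaining 4, so results are also given without this pair. All 10 markers of pluripotent cells were tested, and their summed level was 6871 to 7141 CPM in wild-type and 6889 to 7003 CPM in S138A libraries. *Pou5f1*, the gene of the pluripotency factor OCT4, had 1018 to 1429 CPM in wild-type and 953.8 to 1427 CPM in S138A ESCs. The log2 fold change of *Ube2d3* itself was -0.06 (SE 0.26, adjusted p = 0.945 from edgeR), and the substitution could not be read from counts per gene.

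*Krt8* and *Krt18* lie next to each other on chromosome 15 with start sites 23.7 kb apart on opposite strands, and *Krt7* lies on the same chromosome 566 kb away. Because *Krt8* and *Krt18* had similar profiles over the libraries and *Krt7* did not, the 250 bases before the start of each are shown from RefSeq (GRCm38.p6), 5′ to 3′ on the strand of the gene. The windows are chr15:102004343-102004592 (- strand) for *Krt8*, chr15:102027966-102028215 (+ strand) for *Krt18* and chr15:101412153-101412402 (+ strand) for *Krt7*. These RefSeq starts differ from the GENCODE starts used for gene positions and distances here, so the *Krt7* window lies inside the GENCODE gene and the *Krt8* and *Krt18* windows reach into theirs. Capitals mark matches on either strand to the motif of the GATA factors (GATAAG), to the box bound by SP1 (GGGCGG) and to the motif of the AP-2 family (GCCNNNGGC).
Krt8: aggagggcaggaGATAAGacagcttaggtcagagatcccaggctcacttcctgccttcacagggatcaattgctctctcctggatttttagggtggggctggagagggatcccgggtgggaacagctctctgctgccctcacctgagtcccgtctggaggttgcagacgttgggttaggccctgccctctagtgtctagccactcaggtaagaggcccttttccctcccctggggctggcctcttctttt
Krt18: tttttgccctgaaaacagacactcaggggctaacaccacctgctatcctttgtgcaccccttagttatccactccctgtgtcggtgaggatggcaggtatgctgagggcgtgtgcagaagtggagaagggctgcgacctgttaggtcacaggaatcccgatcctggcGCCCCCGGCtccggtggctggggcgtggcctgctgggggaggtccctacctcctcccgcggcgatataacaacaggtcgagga
Krt7: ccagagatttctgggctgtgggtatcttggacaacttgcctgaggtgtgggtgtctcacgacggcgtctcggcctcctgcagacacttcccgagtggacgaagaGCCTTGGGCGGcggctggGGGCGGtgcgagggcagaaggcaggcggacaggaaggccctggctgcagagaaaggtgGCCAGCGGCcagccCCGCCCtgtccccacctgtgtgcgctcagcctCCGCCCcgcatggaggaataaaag
*Krt8* has 1 match to the motif of the GATA factors and *Krt18* has 1 to that of the AP-2 family. *Krt7* has 4 SP1 boxes and 2 AP-2 motifs, of which 1 of each overlap. Among 32851 promoter windows of this length, 6.55% hold the GATA motif, 32.7% the SP1 box and 13.7% the AP-2 motif. *Krt7* has 16 CpG dinucleotides in its window, *Krt18* has 12 and *Krt8* has 3, where the median of all windows is 6. Promoter entries were matched for 7 of the 10 genes (9 windows), with *Krt19*, *Hand1* and *Tfap2c* unmatched. The 2 windows of *Elf5* hold 2 and 8 CpG, while those of *Gata2*, *Gata3* and *Ascl2* hold 19 to 24. These letters are a description and say nothing of which factors bind.

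In wild-type ESCs the levels of the 10 genes spanned more than 3 orders of magnitude. Per kilobase of the longest coding transcript (GENCODE M21), *Krt18* was highest at 149.5 ± 12.0 CPM per kb and *Krt8* followed at 116.4 ± 13.3 CPM per kb (SD, n = 3 libraries for every level here). These levels lay above those of 97.5% and 96.6% of the 14101 tested genes with a coding transcript. *Krt19* (26.2 ± 5.32 CPM per kb) and *Tfap2c* (16.9 ± 6.31 CPM per kb) came next, and their ranges over the wild-type libraries overlapped. The remaining levels were below the median of all tested genes, 6.32 CPM per kb. *Ascl2* had 4.11 ± 1.19, *Krt7* had 1.90 ± 0.123 and *Hand1* had 1.58 ± 0.194 CPM per kb. *Gata2* at 0.765 ± 0.316 and *Gata3* at 0.590 ± 0.0854 CPM per kb had overlapping ranges, and *Elf5* was lowest at 0.0466 ± 0.0323 CPM per kb. Other neighbours in this order did not overlap in the wild-type libraries. The order depends on the transcript chosen, which for *Krt7* was 4094 bases long, against 1958 for *Krt8*. With a shorter *Krt7* transcript its level would be higher.

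**Figure D1:**
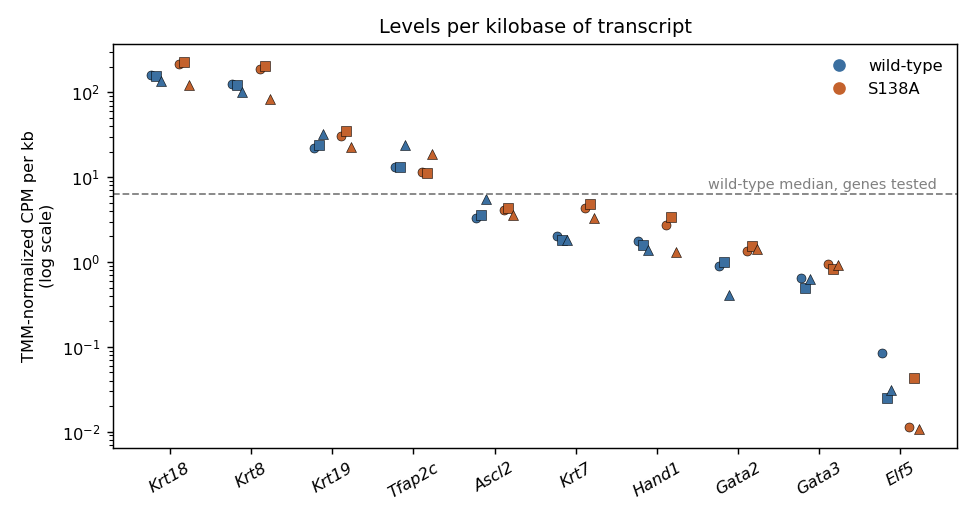
Levels per kilobase of the longest coding transcript (TMM-normalized CPM per kb, log scale) in the 6 libraries, with 1 point per library and a marker shape for each of the 3 libraries of a genotype. Krt18 and Krt8 lie above 80 CPM per kb in all 6 libraries, and Elf5 lies below 0.1; the dashed line is the wild-type median of tested genes, 6.32.

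For the question of whether the S138A substitution goes along with a change in these genes, counts were scaled by trimmed mean of M-values (TMM) and compared with edgeR's quasi-likelihood test. In bulk RNA, more cells of a type and more RNA per cell cannot be told apart. At an adjusted p of 0.05 none of the 9 tested genes was called, on a background of 0% (0 of 16023 genes). At an unadjusted p of 0.05 the test held 2270 genes and 3 of the 9, all higher in S138A ESCs (*Krt7*, *Gata2* and *Gata3*). DESeq2 called 797 genes and limma-voom called 0, with 2199 at an unadjusted p of 0.05. DESeq2 called *Krt7* alone of the 9 (higher, background 2.62%). With the replicate number as a block, where the final digit of the column name stood for the number of each S138A library, *Krt7*, *Gata2* and *Gata3* were called higher (3 of 9, background 10.7%) and *Tfap2c* lower (1 of 9, background 9.13%). Without wild-type 3 and S138A C, which leaves 2 libraries against 2, there were 7 of the 9 called higher (background 15.3%) and 1 lower (background 14.3%). The median log2 fold change of the 9 genes was 0.43 in the comparison of all 6 libraries, and that of all tested genes was 0.02.

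**Figure D2:**
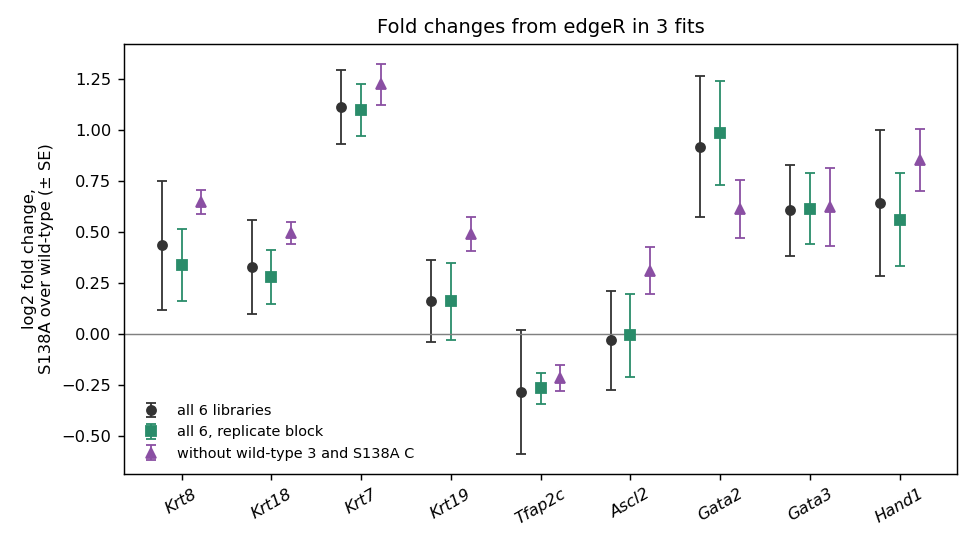
Log2 fold changes of the 9 tested genes, S138A over wild-type, with standard errors, from edgeR on all 6 libraries, with the replicate block, and without wild-type 3 and S138A C. Krt7 lies near 1.1 in all 3 fits, Krt8, Krt18 and Krt19 are larger without the pair, and Ascl2 changes sign.

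*Krt7* (GRCm38 chr15:101411043-101430313, + strand, 9 exons) encodes a type II keratin of trophoblast and of ducts and glands. It had 8.354, 7.498 and 7.471 CPM in wild-type 1, 2 and 3, and 17.5, 19.5 and 13.4 CPM in S138A A, B and C. The lowest S138A library was above the highest wild-type library. The means were 7.77 ± 0.502 and 16.8 ± 3.13 CPM (SD, n = 3), a ratio of 2.16. The exact permutation p was 0.1 (two-sided), and 3 libraries against 3 cannot give a smaller one. Its log2 fold change of 1.11 (SE 0.18) had an adjusted p of 0.169 in edgeR, against 0.00582 with the replicate block, 1.46e-05 with DESeq2 and 0.000391 without wild-type 3 and S138A C. Without S138A C alone the log2 fold change was 1.25 and the adjusted p 0.0376 (edgeR).

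*Krt8* (GRCm38 chr15:101996698-102004482, - strand, 9 exons) and *Krt18* (chr15:102028180-102032027, + strand, 7 exons) encode type II and type I partners of simple epithelium. *Krt8* had 245.6, 240.0 and 198.1 CPM in wild-type 1, 2 and 3, and 364.5, 396.6 and 162.1 CPM in S138A A, B and C. *Krt18* had 227.6, 221.6 and 195.3 CPM in the wild-type libraries and 309.4, 324.8 and 174.3 CPM in S138A A, B and C. For both genes S138A A and B held the highest values of the 6 libraries and S138A C the lowest, so the groups overlapped. Mean *Krt8* was 227.9 ± 26.0 CPM against 307.7 ± 127 CPM in S138A ESCs, and mean *Krt18* was 214.8 ± 17.2 against 269.5 ± 82.8 CPM (SD, n = 3). The log2 fold changes were 0.43 (SE 0.32, adjusted p = 0.579) for *Krt8* and 0.33 (SE 0.23, adjusted p = 0.57) for *Krt18* in edgeR, and neither was called with the replicate block (adjusted p = 0.206 and 0.171). Without wild-type 3 and S138A C they were 0.65 (SE 0.06, adjusted p = 0.000546) and 0.50 (SE 0.05, adjusted p = 0.00114). By the final digit of the column names, the log2 ratio of *Krt8* was 0.57 for A to 1, 0.72 for B to 2 and -0.29 for C to 3. The same ratios of *Krt18* were 0.44, 0.55 and -0.16. Whether the genotype difference of C and 3 differs from that of the other libraries was not tested.

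*Krt19* (GRCm38 chr11:100140810-100148665, - strand, 6 exons) encodes a small type I keratin. It had 35.2, 37.9 and 50.9 CPM in the wild-type libraries and 47.9, 54.7 and 35.9 CPM in S138A A, B and C. Wild-type 3 was the highest of its genotype and S138A C the lowest of its own. The log2 fold change was 0.16 (SE 0.20, adjusted p = 0.764 from edgeR), and without that pair it was 0.49 (SE 0.08, adjusted p = 0.00576).

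**Figure D3:**
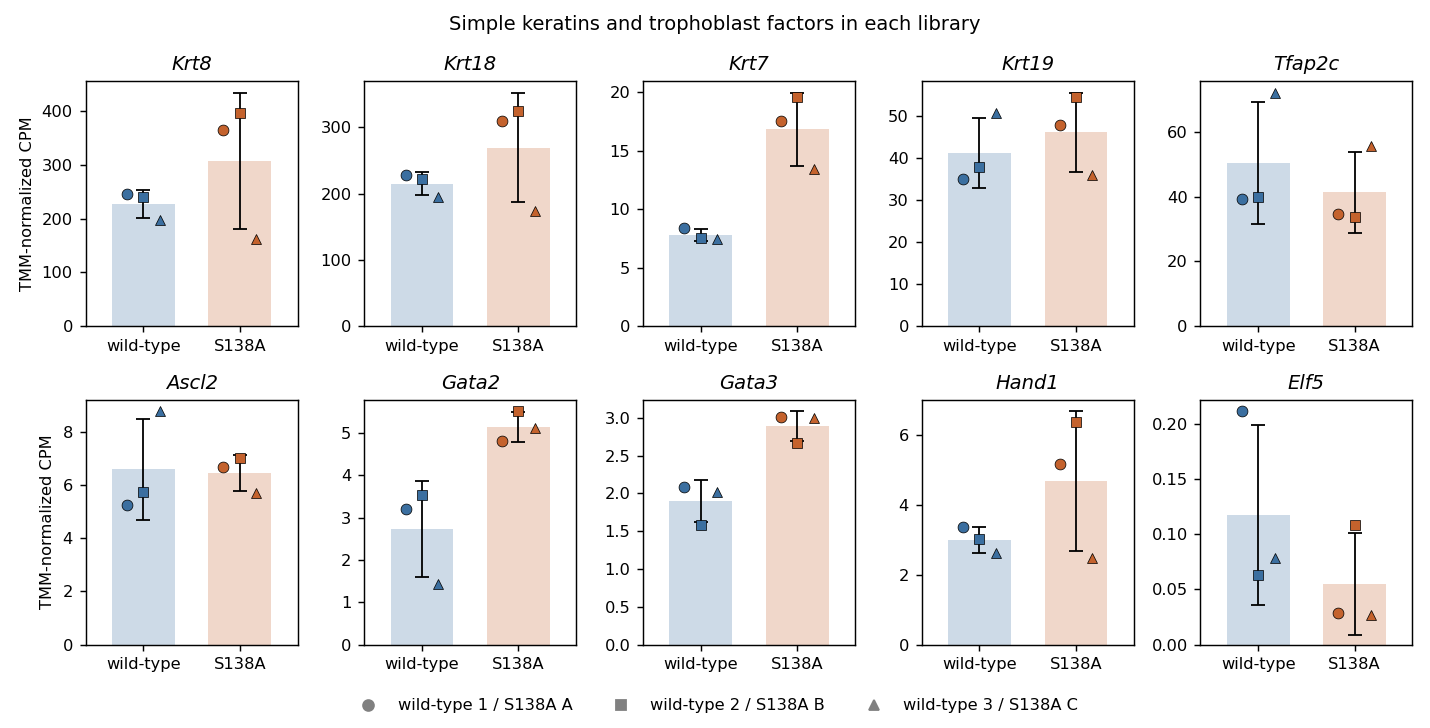
TMM-normalized CPM of each gene in wild-type and S138A ESCs, each panel on its own axis from 0. Bars are means, error bars the SD of 3 libraries and points single libraries, with triangles for wild-type 3 and S138A C. The groups do not overlap for Krt7, Gata2 and Gata3.

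Ratios within a library do not depend on scaling. The count of *Krt8* was 1.08, 1.08 and 1.01 times that of *Krt18* in the wild-type libraries and 1.18, 1.22 and 0.930 times in S138A A, B and C. The ratio of the partners thus lay between 0.930 and 1.22 in the 6 libraries. Summed per kilobase, the type II transcripts *Krt7* and *Krt8* came to 0.672 ± 0.0517 of the type I transcripts *Krt18* and *Krt19* for wild-type and 0.723 ± 0.109 for S138A ESCs (SD, n = 3, exact permutation p = 0.6). There were 3.40, 3.12 and 3.77 *Krt7* counts per 100 *Krt8* counts in the wild-type libraries and 4.80, 4.93 and 8.27 in S138A A, B and C. This ratio did not overlap between the groups (exact permutation p = 0.1), and S138A C held the highest value. *Krt19* had 15.5, 17.1 and 26.0 counts per 100 counts of *Krt18* in wild-type 1, 2 and 3 and 15.5, 16.8 and 20.6 in S138A A, B and C, with the groups overlapping.

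**Figure D4:**
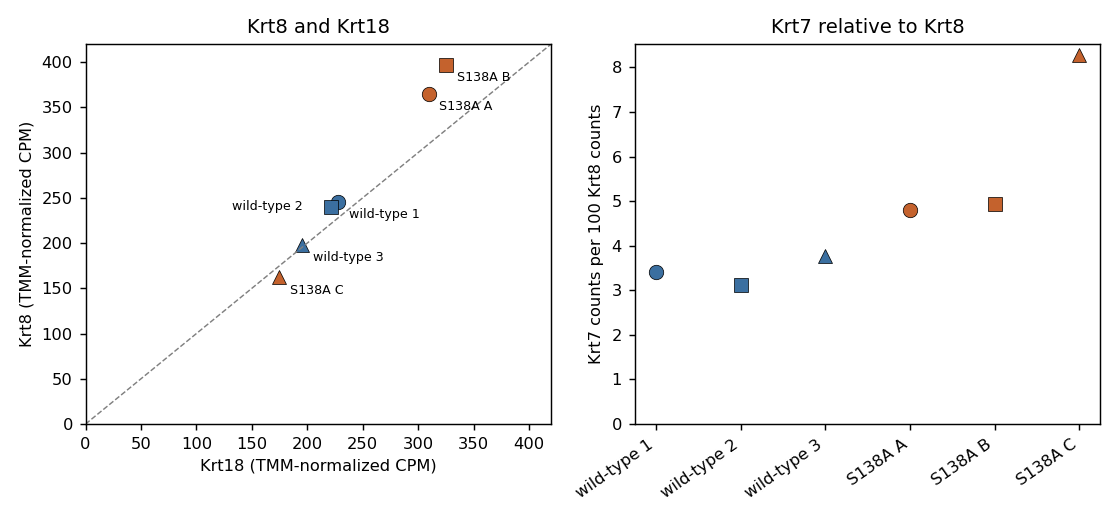
Left, Krt8 against Krt18 in TMM-normalized CPM, with 1 point per library and a dashed line of equality. Right, Krt7 counts per 100 Krt8 counts in each library. The 6 libraries lie close to the line of equality for Krt8 and Krt18, whereas the Krt7 ratio is 3.12 to 3.77 in wild-type and 4.80 to 8.27 in S138A libraries.

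Among 10754 other genes of at least 5 mean CPM, likeness to *Krt8* was measured by the root mean square difference of centred log2 CPM over the 6 libraries. *Krt18* was the 17th closest, at a difference of 0.13. The 5 closest were *Tgfb2*, *Aldh1a3*, *H2-T23*, *9930012K11Rik* and *Prss23*, at 0.0645 to 0.099. *Krt7* was at place 4418 and *Krt19* at place 1971. The 5 genes closest to *Krt7* were *Thy1*, *Cited4*, *Tppp3*, *Rtkn* and *Bmp1*, at differences of 0.0969 to 0.143. *Thy1*, a surface protein of fibroblasts and other cells, had 11.05, 11.33 and 11.01 CPM in wild-type and 25.3, 26.1 and 16.5 CPM in S138A A, B and C. These are descriptions over 6 libraries, of which wild-type 3 and S138A C lay apart on the first principal component. How far that spread sets these places was not tested.

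Of the factors, *Gata2* (GRCm38 chr6:88193891-88207032, + strand, 6 exons) and *Gata3* (chr2:9857078-9890034, - strand, 6 exons) had higher values in every S138A than in any wild-type library. *Gata2*, a zinc finger factor of trophoblast giant cells and blood, had 3.21, 3.54 and 1.44 CPM (106, 112 and 55 counts) in wild-type 1, 2 and 3. It had 4.81, 5.52 and 5.12 CPM (166, 203 and 190 counts) in S138A A, B and C. The S138A libraries lay close together, and wild-type 3 was the lowest of the 6. The log2 fold change was 0.92 (SE 0.34, adjusted p = 0.31 from edgeR) and 0.99 with the replicate block (SE 0.26, adjusted p = 0.0357). Without wild-type 3 and S138A C it was 0.61 (SE 0.14, adjusted p = 0.0163).

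*Gata3*, which acts downstream of TEAD4 and beside CDX2 at the start of the trophoblast, had 2.09, 1.58 and 2.02 CPM (69, 50 and 77 counts) in wild-type libraries. It had 3.01, 2.66 and 2.99 CPM (104, 98 and 111 counts) in S138A A, B and C. Its means were 1.90 ± 0.275 and 2.89 ± 0.196 CPM (SD, n = 3, exact permutation p = 0.1), with no overlap. The log2 fold change was 0.61 (SE 0.22) in edgeR, with an adjusted p of 0.303, or 0.0468 with the replicate block. Other annotated genes that overlap *Gata3* had at most 7 counts in any library. *Krt7* and *Krt8* are also overlapped by genes annotated on the opposite strand, *Gm671* and *Gm36026*, which have no values in the table, so reads of these genes cannot be set apart from those of the keratins. Of the 9 tested genes, 3 lay wholly above wild-type (background 11.3%) and 0 wholly below (background 10.9%).

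*Hand1* (GRCm38 chr11:57828705-57832818, - strand, 2 exons), a basic helix-loop-helix factor needed for giant cells and for lateral mesoderm, had 3.36, 3.04 and 2.62 CPM in wild-type and 5.19, 6.39 and 2.48 CPM in S138A A, B and C. S138A A and B were above and S138A C below every wild-type library. Its log2 fold change of 0.64 (SE 0.36) was not called in edgeR (adjusted p = 0.476, or 0.122 with the replicate block) and was 0.85 (SE 0.15, adjusted p = 0.00672) without wild-type 3 and S138A C. *Krt8*, *Krt18*, *Krt7* and *Hand1* were lowest in wild-type 3 among wild-type and in S138A C among S138A libraries.

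*Tfap2c* (GRCm38 chr2:172549593-172558622, + strand, 7 exons), the gene of an AP-2 factor, had 39.4, 39.8 and 72.2 CPM in wild-type 1, 2 and 3, and 34.6, 33.8 and 55.9 CPM in S138A A, B and C. The groups overlapped, with S138A C above wild-type 1 and 2. *Tfap2c* was the only one of the 10 that was highest in both wild-type 3 and S138A C. The S138A value was the lower one in each of the 3 pairs by column digit, at log2 ratios of -0.19, -0.24 and -0.37. Over all 6 libraries the log2 fold change was -0.29 (SE 0.30, adjusted p = 0.717 from edgeR). It was -0.27 with the replicate block (SE 0.08, adjusted p = 0.0455) and -0.22 without wild-type 3 and S138A C (SE 0.06, adjusted p = 0.0402), whereas it turned to 0.062 without wild-type 3 alone.

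*Ascl2* (GRCm38 chr7:142966829-142969264, - strand, 3 exons), an imprinted factor of the ectoplacental cone that is also a WNT target, had 5.27, 5.76 and 8.78 CPM in wild-type and 6.67, 7.01 and 5.72 CPM in S138A libraries. The groups overlapped, and the log2 fold change was -0.03 (SE 0.24, adjusted p = 0.97 from edgeR). It was 0.31 without wild-type 3 and S138A C (SE 0.11, adjusted p = 0.0777).

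*Elf5* (GRCm38 chr2:103411688-103450989, + strand, 7 exons) had 7, 2 and 3 counts in the wild-type and 1, 4 and 1 in the S138A libraries, under the filter on low counts. The summed counts of 12 and 6 give a ratio of S138A to wild-type of 0.474, with an exact 95% interval of 0.146 to 1.36 that covers counting error only. The counts thus resolved no difference in *Elf5*, and on counting error alone the interval spans a fall to 0.146 and a rise to 1.36 of wild-type.

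The other genes of the trophoblast were taken as a list of 30, of which 25 were tested. None was called in edgeR, and 6 of the 25 lay wholly above wild-type (11.3% of all tested genes did) and 0 below (10.9%). The fit with the replicate block called 11 higher (10.7% of all tested genes) and 0 lower (9.13%). Among these 11, *Spry4*, *Arid3a* and *Furin* already had means of 160.8, 30.8 and 23.8 CPM in wild-type ESCs. Of those not called, *Peg10*, *Rhox6* and *Syna* had log2 fold changes of -0.22, -0.32 and -0.41 in edgeR, and *Gcm1* and *Plac1* of 0.22 and 0.59. The median log2 fold change of the 25 was 0.32 in the comparison of all 6 libraries. *Cdx2*, the caudal-type factor that specifies trophoblast, had 6, 12 and 7 counts in wild-type and 48, 71 and 16 counts in S138A A, B and C. Its log2 fold change was 2.33 (SE 0.63, adjusted p = 0.214 from edgeR, 0.0113 with the replicate block). The homeobox genes *Msx2* and *Dlx3* had log2 fold changes of 0.97 and 0.91 (adjusted p = 0.0331 and 0.0247 with the block), from 1.61 and 1.54 mean CPM in wild-type ESCs. *Phlda2*, an imprinted gene that limits placental growth, had a mean of 44.9 CPM in wild-type libraries and of 58.4 CPM in S138A libraries, and its log2 fold change was 0.38 (SE 0.11, adjusted p = 0.237 from edgeR, 0.0359 with the block). *Tpbpa*, the marker of the spongiotrophoblast, had 0 counts in all 6 libraries, and *Prl3d1*, a lactogen of giant cells, had at most 2. A count of 0 in a single library limits the level there only to below about 3 counts, and 0 in every library gives a tighter limit.

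The 4 simple keratins held 91.4% to 93.1% of all keratin counts in wild-type and 93.1% to 95.7% in S138A libraries. Of the 50 other keratin genes in the table, 13 were tested, 7 had no count in any library and 1 reached 10 CPM. None of the 13 was called in edgeR, and with the replicate block 1 was called higher and 4 lower, against 10.7% and 9.13% of all tested genes. *Krt17*, a type I keratin of basal and stressed epithelium, had 6.57, 6.49 and 7.21 CPM in wild-type and 4.40, 4.87 and 3.64 CPM in S138A libraries. All S138A libraries of *Krt17* lay below wild-type, at a log2 fold change of -0.65 (SE 0.19, adjusted p = 0.228 from edgeR, 0.028 with the block). *Krt16*, its close relative, had 38, 27 and 108 counts in wild-type 1, 2 and 3 and 23, 20 and 27 in S138A A, B and C. With the block *Krt16* was called lower (adjusted p = 0.0373), as were *Krt13* (adjusted p = 0.0359) and *Krt42* (adjusted p = 0.0332). *Krt42*, the 1 that reached 10 CPM, had 18.22, 18.76 and 17.67 CPM in wild-type and 14.34, 14.6 and 9.005 CPM in S138A libraries. *Krt79* had 38, 33 and 27 counts in wild-type 1, 2 and 3 and 72, 97 and 48 in S138A A, B and C (adjusted p = 0.0211 with the block). *Krt222* had 18 to 30 counts in wild-type and 12 to 17 in S138A libraries (adjusted p = 0.0802 with the block). Reads of near-identical keratins may have been split between them, which leaves the low values uncertain.

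Of 16 relatives of the 6 factors, 11 were tested, and none was called in edgeR. The fit with the replicate block called 2 higher and 1 lower out of 11, which is close to the shares of all tested genes, 10.7% and 9.13%. *Tfap2a*, the AP-2 factor of trophoblast and neural crest, had 1.54, 1.11 and 0.498 CPM in wild-type and 2.72, 2.53 and 1.16 CPM in S138A libraries (log2 fold change 1.03, adjusted p = 0.411 from edgeR, 0.0181 with the block). This gene is also among the 25 above. *Tfap2e* had 7 to 12 counts in wild-type and 18 to 22 in S138A libraries (adjusted p = 0.0656 with the block). Of the ETS factors related to *Elf5*, *Elf1* had 650 to 780 counts in wild-type and 550 to 618 counts in S138A libraries, and *Elf4* had 592 to 1156 counts in wild-type and 1090 to 1224 in S138A libraries. With the block *Elf1* was called lower (adjusted p = 0.0351) and *Elf4* higher (adjusted p = 0.0336).

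Keratin filaments attach to desmosomes, and all 32 genes of epithelial junctions and desmosomes on the list were tested. None was called in edgeR, whereas the fit with the replicate block called 11 higher and 4 lower out of 32, against 10.7% and 9.13% of all tested genes. Their median log2 fold change was 0.23. *Dsc2*, a desmosomal cadherin, had 11.05, 10.76 and 10.43 CPM in wild-type and 18.08, 16.53 and 17.01 CPM in S138A A, B and C (log2 fold change 0.68, SE 0.13, adjusted p = 0.187 from edgeR, 0.00878 with the block). The log2 fold change of *Pkp3*, a gene of the desmosomal plaque, was 0.55 (adjusted p = 0.0253 with the block). *Esrp1*, an epithelial splicing factor, had 46.4, 47.6 and 33.5 CPM in wild-type and 30.7, 28.2 and 21.8 CPM in S138A libraries, a log2 fold change of -0.66 (SE 0.19, adjusted p = 0.225 from edgeR, 0.00592 with the block).

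**Figure D5:**
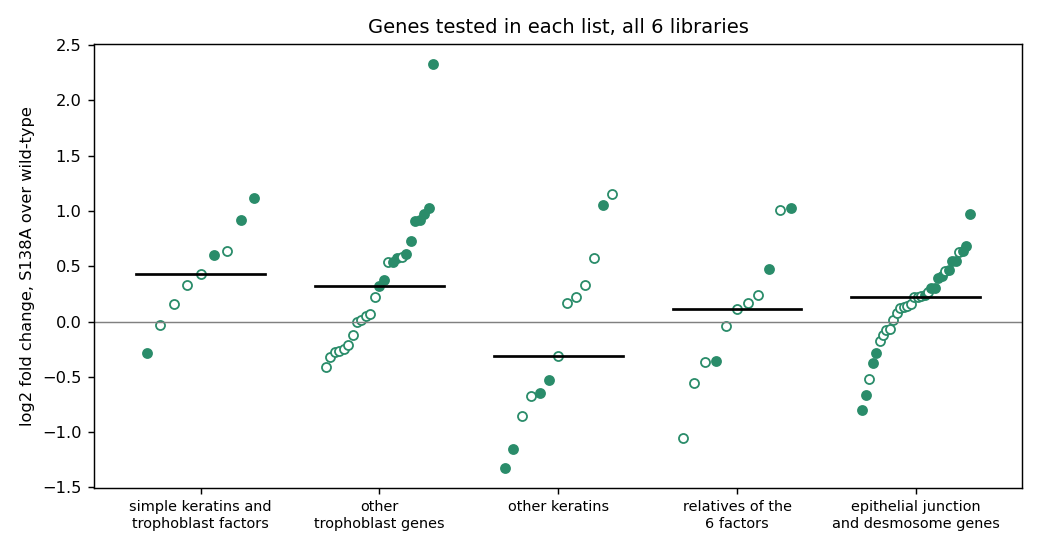
Log2 fold changes (S138A over wild-type, edgeR, all 6 libraries) of the tested simple keratins and trophoblast factors and of 4 related gene lists, with 1 point per gene and a black line at the median. Filled points were called with the replicate block. The medians are 0.43 for the 9 genes, 0.32 for other trophoblast genes, -0.31 for other keratins, 0.12 for relatives of the factors and 0.23 for junction genes.

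Markers of other cells that ESC cultures may hold were read beside these values. Of 13 trophoblast markers 10 were tested, and their sum was 513.1 to 571.0 CPM in wild-type and 784.2, 834.6 and 447.2 CPM in S138A A, B and C, and 3 of them were called higher and 1 lower with the block, against 10.7% and 9.13% of all tested genes here and in the marker lists that follow. This list holds *Krt7*, *Krt8*, *Krt18*, *Gata3*, *Hand1*, *Tfap2c* and *Elf5* themselves. *Krt8* and *Krt18* made up most of the sum in every library, so it largely repeats their values. Of the genes called, only *Cdx2* is not among the 10. Of 10 fibroblast or feeder markers 8 were tested, and 5 were called higher and 0 lower with the block. Their sum was 49.5 to 71.3 CPM in wild-type and 117.6, 124.4 and 76.6 CPM in S138A A, B and C, which, like *Krt7*, did not overlap between the groups. *Col1a1* and *Thy1* made up most of this sum in every library. Of the markers not called, *Lum* had at most 1 count in a library and *Dcn* at most 5. *Col1a2* and *Twist1* had log2 fold changes of -0.26 and -0.08 in edgeR. Two-cell-like markers summed to 59.7, 62.4 and 30.4 CPM in wild-type 1, 2 and 3 and 161.1, 166.3 and 42.1 CPM in S138A A, B and C, and all 7 in the table were called higher with the block and 0 lower. Like *Krt8* and *Krt18*, this sum was highest in S138A A and B and lowest in wild-type 3 and S138A C within each genotype. Primitive endoderm markers, 12 of 12 tested, summed to 315.8 to 325.4 CPM in wild-type and 317.3 to 326.7 CPM in S138A libraries, with 1 called higher and 1 lower with the block. The higher was *Col4a1*, with means of 72.8 CPM in wild-type and 100.8 CPM in S138A libraries. The lower was *Lama1*, with 76.4 and 56.7 CPM, so opposite changes lie within this sum. Primitive streak and mesoderm markers, 6 of 10 tested, summed to 10.2 to 19.5 CPM in wild-type and 8.90 to 25.8 CPM in S138A libraries, with 0 called in either direction. Markers of stratified epithelium, 6 of 9 tested, summed to 112.6 to 187.9 and 103.6 to 255.6 CPM, with 0 called higher and 1 lower. *Sfn* alone made up most of that sum in every library. Of the 10 pluripotency markers, 1 was called higher and 1 lower with the block. The part of any of these cells in the keratin and factor values was not tested.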

How the data were processed

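RNA from E14 ESCs was sequenced as polyA libraries, 3 wild-type and 3 S138A, from 500 ng of RNA each with a kit that keeps the strand. Per the labels, bases were called with CASAVA 1.8.4 and TopHat2 2.0.11 was the aligner, on mm9 (NCBIM37). The authors deposited a table of unnormalized counts, made with featureCounts. Its settings for strand and shared reads are not given in the sources used here, so overlapping and similar genes may exchange reads. The study's methods do not describe the RNA sequencing.

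Genes were kept by filterByExpr (minimum count 10, minimum total 15), scaled by TMM and compared with edgeR version 4.0.16 in R version 4.3.3 (quasi-likelihood test, Benjamini-Hochberg over 16023 genes, called under 0.05). SE is the size of the log2 fold change over the square root of F. CPM are TMM-normalized. DESeq2 version 1.42.0 and limma version 3.58.1 were alternatives, with RLE factors, other filters, libraries left out and the replicate block. Deviations from group means correlated at 0.602, 0.559 and 0.782 for libraries with the same digit, and crossing the digits 1 and 2 gave 0.594 and 0.604. That pairing was taken from the final digit of the column names alone, not from a stated design. The correlations do not tell the digits 1 and 2 apart. Wild-type 3 correlated at -0.706 and -0.674 with S138A A and B, so the correlations mostly show that wild-type 3 and S138A C lie apart. The scripts were tested on simulated counts.

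Symbols were matched for 32897 genes (87.4%) through identifiers. Transcript lengths and positions come from GENCODE M21 and promoters from RefSeq, both on GRCm38, another build than that of the counts. Genes and lists were chosen with earlier results of these data known. The text names by rule all 10 genes, up to 4 tested genes of each related list by smallest p, the 5 closest profiles to *Krt8* and *Krt7*, *Cdx2*, *Pou5f1* and *Ube2d3*. Outside this rule, *Tpbpa*, *Prl3d1*, *Spry4*, *Arid3a*, *Furin*, *Peg10*, *Rhox6*, *Syna*, *Gcm1*, *Plac1*, *Krt13* and *Krt42* were named after their values were seen. So were other single genes among the cell markers. 1 of the genes this rule names is not reported here.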

Additional observations from a re-analysis of the deposited data

How the results depend on the processing

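Over all genes, where the comparison of 6 libraries called 0, there were 4 calls with no filter beyond 1 count, 797 with DESeq2, 3180 with the replicate block and 4756 without wild-type 3 and S138A C. Leaving out 1 library gave 0 to 79, the highest without S138A C. Of the 9 tested genes, 1 was called with DESeq2, 4 with the replicate block, 8 without wild-type 3 and S138A C, and 0 to 1 with 1 library left out, where the 1 was *Krt7* without S138A C. RLE factors, a filter of 1 CPM in 3 libraries and limma-voom called 0 of the 9 and 0 genes in all. *Tfap2c* had log2 fold changes of -0.57 to 0.062 with 1 library left out and was above 0 only without wild-type 3. *Ascl2* ranged from -0.18 to 0.23 and was above 0 without wild-type 3 or S138A C, and at 0.31 without both. The other 7 tested genes had positive values in every alternative run, but their sizes moved. Against the values from all 6 libraries, without S138A B *Krt19* was at 0.013, *Krt8* at 0.20, *Krt18* at 0.16 and *Hand1* at 0.34. *Krt18* was at 0.22 without S138A A. Without S138A C *Krt8* was at 0.74, *Krt18* at 0.56 and *Krt19* at 0.31. *Krt19* was at 0.05 without wild-type 1, 0.096 without wild-type 2 and 0.34 without wild-type 3, and *Gata2* at 0.61 without wild-type 3. The replicate block changed the call of no tested gene of the 9 but *Krt7*, *Gata2*, *Gata3* and *Tfap2c*. The cause of these differences was not tested. The fit of 2 libraries against 2 removes the spread that wild-type 3 and S138A C bring, and its calls rest on few libraries. For *Elf5* the counts resolved no difference.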
